A study of Mus musculus with 18 samples.

Results

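The 52 genes described here copy DNA or open the way from G1 into S phase. They were taken by name from the gene tables and grouped by role, and all 52 were found among the 30452 genes measured at each of 2 times. The cells were light zone germinal centre B cells of mice, sorted from the popliteal lymph node as B220+ CD38- CD95+ CD83hi CXCR4lo cells. All carried the B1-8hi receptor, which binds the hapten NP, and all came from a transferred mixture of B cells, 15% DECP (Ly75+/+, CD45.1) and 85% DECN (Ly75-/-, CD45.1/2), in C57BL/6 hosts primed with OVA in alum 2 weeks before transfer. Ly75 encodes DEC205, an endocytic receptor. The hosts were immunized with NP-OVA and 6 days later received an antibody to DEC205 joined to OVA, a design that directs antigen to the DECP cells. At 24 h after the antibody there were 4 libraries of DECP cells from hosts also given 2.5 mg/kg rapamycin with the antibody (DECP+rapamycin), 4 of DECP and 4 of DECN cells, and at 12 h there were 3 of DECP and 3 of DECN. Age is not stated, nor is it stated whether each library stems from its own animals; the p-values therefore reflect variation among the libraries at hand, and this may be technical. DECN cells from rapamycin-treated hosts were not analysed here.

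In G1 the origin recognition complex, with Cdc6 and Cdt1, loads the MCM helicase onto DNA (licensing). At the start of S phase the kinase made of Cdc7 and Dbf4, together with cyclin E and its partner kinase, turns the loaded helicase on by adding Cdc45 and the GINS complex. Polymerases, the sliding clamp PCNA and the supply of deoxynucleotides then carry the fork forward, while E2F factors set the transcription of many of these genes. In germinal centres, B cells that receive help from T cells in the light zone enter the cell cycle and move to the dark zone, where they divide.

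Values are TPM, a transcript abundance corrected for transcript length and scaled to a fixed total, so levels may be compared between genes. The depth of single libraries is unknown, since TPM keeps none. Genes at 1 TPM or above numbered 11128 to 12244 per library at 24 h and 13114 to 13597 at 12 h. Ly75 averaged 14.1 TPM in DECP cells, against 5.01 TPM in DECN cells, at 24 h, and 32.6 TPM in DECP cells, against 9.40 TPM in DECN cells, at 12 h, so it was lower but not absent in the cells labelled Ly75-/-. Germinal centre B cell markers were present in every group, for example Cd79b with a group mean of 467 TPM or more. Some markers of other cells were also read, with group means of 517 to 1358 TPM for Apoe (myeloid list), 472 to 949 TPM for Jchain (plasma cell list), 15.1 to 41.1 TPM for Cd3d (T cell list) and 10.8 to 38.5 TPM for Pecam1 (stromal list). The other genes of the T cell, myeloid and stromal lists had group means of at most 5.23 TPM (Cd8a), 8.64 TPM (Lyz2) and 0.377 TPM (Col1a1). In the plasma cell list Xbp1 had group means of 47.0 to 101 TPM, but Sdc1 had at most 1.69 TPM and Prdm1 at most 0.853 TPM. Changes are log2 differences of TPM + 1, tested with limma over all genes that reached 1 TPM in as many libraries as the smallest group holds. All 52 genes passed that filter in every comparison. An adjusted p under 0.05 is called a rise or a fall.

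The 52 genes covered a wide range of levels. In DECP cells at 24 h the highest was Pcna, the sliding clamp, at 545 ± 41.9 TPM (SD, n = 4), then Rrm2 at 369 ± 13.0, Tipin at 329 ± 32.4 and Rfc2 at 296 ± 18.2 TPM. The lowest were Rfc1 at 2.80 ± 5.37 TPM, the origin recognition subunit gene Orc1 at 6.22 ± 3.73, E2f8 at 6.31 ± 1.77 and E2f2 at 9.31 ± 2.14 TPM. Neighbours in this order did not always differ beyond their spread: the libraries of Rrm2 (359 to 387 TPM) and Tipin (295 to 371 TPM) overlapped. At least 50 TPM was reached by 31 of the 52 in DECP+rapamycin cells, 33 in DECP and 30 in DECN cells at 24 h, and by 43 in DECP and 39 in DECN cells at 12 h. These are whole-sample values, in which more cells in S phase and more RNA per cell cannot be told apart.

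The first comparison asked how DECP cells differed from DECN cells 24 h after the antibody. Rises were found for 9 of the 52 genes (17.3%) and a fall for none, whereas 348 of all 12783 genes tested (2.72%) rose, 1.32% fell and 4.04% did either. By role the 9 included Orc6 and Gmnn from the licensing genes, although Gmnn encodes an inhibitor of licensing. The helicase component Gins1, the primase subunit Prim2 and the clamp Pcna were each the only call of their role. The rest were the ribonucleotide reductase genes Rrm1 and Rrm2, and the fork proteins Tipin and Clspn. The change was positive for 48 of the 52 genes, and their median log2 change was 0.47, beside 0.00 over all genes tested. An unadjusted p under 0.05 was reached by 28 of the 52, all higher in DECP cells, where 10.3% of all genes tested were higher by that rule.

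The summed level of the 52 genes at 24 h was highest in DECP cells. It was 4221, 3613, 4800 and 4329 TPM in the 4 DECP+rapamycin libraries, 5732, 5283, 5691 and 5443 TPM in the DECP libraries and 3996, 3859, 4066 and 4001 TPM in the DECN libraries at 24 h. All DECP libraries lay above all libraries of the other 2 groups, and the DECP+rapamycin libraries overlapped DECN. At 12 h the sum was 6074, 6388 and 7544 TPM in DECP and 5468, 6105 and 7605 TPM in DECN libraries, with the groups interleaved.

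**Figure D1:**
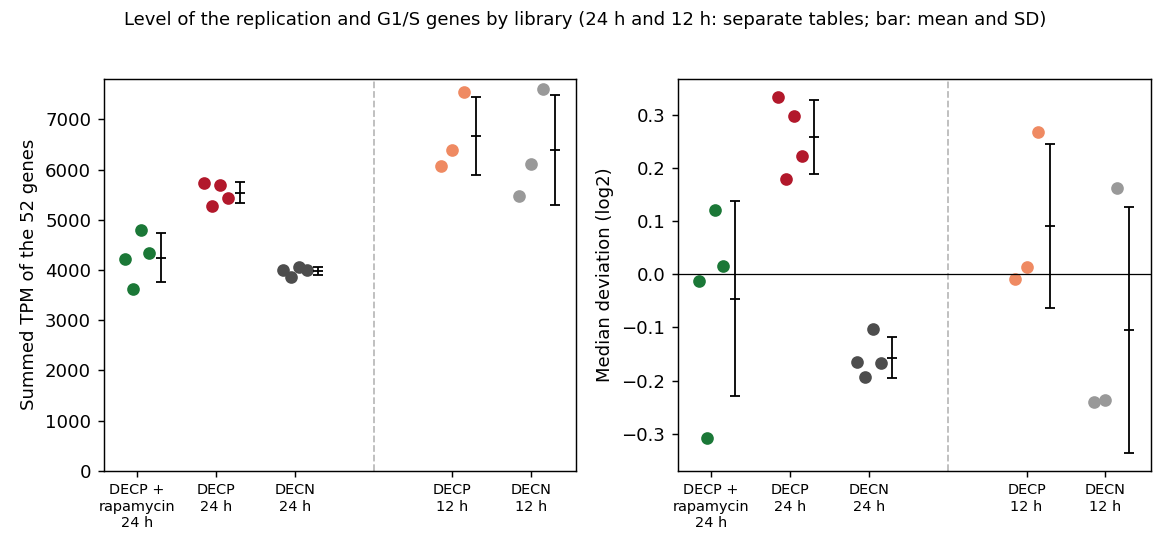
Summed TPM of the 52 genes in each library (left) and the median over the 52 genes of each library's log2 deviation from the gene's mean in its table (right); points are libraries, and bars give the mean and SD of a group. At 24 h the 4 DECP libraries sit between 5283 and 5732 TPM, above DECP+rapamycin and DECN, whereas the groups at 12 h overlap.

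Both genes of ribonucleotide reductase, the enzyme that makes deoxynucleotides, rose in DECP cells at 24 h. Rrm1 (chromosome 7, 102441695 to 102469771 in GRCm38, forward strand), which encodes the large subunit, had 151, 141, 117 and 133 TPM in DECP libraries, against 76.0, 66.4, 48.8 and 87.4 TPM in DECN libraries. Every DECP library was above every DECN library, and the log2 change of 0.98 (SE 0.18, adjusted p = 0.0100) corresponds to 1.97-fold. Rrm2 (chromosome 12, 24708241 to 24714146, forward strand), the small subunit made in S phase, had 387, 360, 359 and 367 TPM in DECP libraries, against 243, 178, 257 and 227 TPM in DECN libraries. The DECP libraries lay close together and all above DECN, with a log2 change of 0.71 (SE 0.16, adjusted p = 0.0243).

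Pcna (chromosome 2, 132249162 to 132253314, reverse strand), the ring that holds polymerases on DNA, had 539, 576, 488 and 576 TPM in DECP libraries, against 365, 329, 384 and 398 TPM in DECN libraries. The groups did not overlap, and the log2 change was 0.56 (SE 0.11, adjusted p = 0.0137). Of the 5 clamp loader genes none passed, with log2 changes from -0.67 for Rfc1 to 0.68 for Rfc4. Rfc1, the large subunit, was read in few libraries: it had 10.9 TPM in 1 DECP library and at most 0.306 TPM in the other DECP libraries, against 10.2 and 8.30 TPM in 2 DECN libraries and near 0 in the others.

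Among the 11 licensing genes all changes were positive, from 0.27 for Mcm2 to 0.91 for Cdt1, and 2 rose. Orc6 (chromosome 8, 85299632 to 85308278, forward strand), the smallest subunit of the origin recognition complex, had 94.9, 133, 135 and 134 TPM in DECP libraries, against 70.2, 83.9, 53.2 and 78.5 TPM in DECN libraries. The lowest DECP library was still above the highest DECN library (log2 change 0.79, SE 0.17, adjusted p = 0.0200). Gmnn (chromosome 13, 24751845 to 24761923, reverse strand) encodes geminin, which binds Cdt1 and blocks a second licensing in the same cycle. It had 209, 218, 310 and 261 TPM in DECP libraries, against 168, 167, 130 and 149 TPM in DECN libraries, again without overlap (0.69, SE 0.16, adjusted p = 0.0287). The 6 MCM helicase genes, Mcm2 to Mcm7, had log2 changes between 0.27 and 0.49 and adjusted p-values of 0.0886 or more; of these Mcm6 had 302, 220, 274 and 243 TPM in DECP libraries, against 179, 211, 206 and 159 TPM in DECN libraries.

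Of the 8 helicase activation genes, all positive, Gins1 rose. Gins1 (chromosome 2, 150905400 to 150931280, forward strand), a subunit of the GINS complex, had 48.3, 62.4, 63.7 and 41.2 TPM in DECP libraries, against 30.2, 27.4, 14.5 and 23.1 TPM in DECN libraries. Its log2 change of 1.17 (SE 0.27, adjusted p = 0.0275) was the largest among the 52. The other GINS genes had 0.47 (Gins2), 0.62 (Gins3) and 0.06 (Gins4), none past the threshold, and the differences between the subunits were not tested. Cdc7, the catalytic subunit of the activating kinase, had 0.07 and its partner Dbf4 0.69, neither past the threshold.

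Of the 8 polymerase and primase genes, Prim2 rose. Prim2 (chromosome 1, 33453810 to 33669795, reverse strand), the large primase subunit that makes RNA primers with Prim1, had 115, 108, 109 and 111 TPM in DECP libraries, against 84.2, 81.3, 52.1 and 72.2 TPM in DECN libraries. The DECP values were close together and all higher (0.63, SE 0.15, adjusted p = 0.0395). Pold2, Pole2 and Pole, subunits of the lagging and leading strand polymerases, had 0.78, 0.71 and 0.58 with adjusted p-values of 0.159 or more, and Pold1 had -0.04.

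Both fork protection genes among the 52 rose. Tipin (chromosome 9, 64281581 to 64305424, forward strand), which steadies the fork as partner of Timeless, had 371, 315, 295 and 334 TPM in DECP libraries, against 223, 199, 265 and 199 TPM in DECN libraries. The groups did not overlap (0.57, SE 0.13, adjusted p = 0.0294). Clspn (chromosome 4, 126556935 to 126593903, forward strand) encodes claspin, the adaptor through which Chk1 is activated. It had 84.7, 74.4, 56.4 and 56.0 TPM in DECP libraries, against 26.5, 24.7, 46.2 and 32.9 TPM in DECN libraries (1.06, SE 0.23, adjusted p = 0.0200), and every DECP library was higher.

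No gene of the remaining 3 roles passed. Rpa3, a subunit of the protein that coats single-stranded DNA, had 168, 147, 167 and 159 TPM in DECP libraries, against 129, 110, 177 and 123 TPM in DECN libraries (0.27, adjusted p = 0.339), with overlap. Uhrf1, which guides the maintenance methyltransferase Dnmt1 to newly copied DNA, had 86.9, 88.5, 78.5 and 81.5 TPM in DECP libraries, against 65.6, 60.2, 52.8 and 64.3 TPM in DECN libraries. Its groups did not overlap, but the adjusted p was 0.127 (log2 change 0.46). Ccne2, a cyclin E gene, had 32.3, 73.3, 59.6 and 59.6 TPM in DECP libraries, against 34.7, 23.8, 37.6 and 36.9 TPM in DECN libraries (0.70, adjusted p = 0.149). The E2F factors had changes of both signs: E2f8, a repressor, had a change of 0.96, E2f1 of -0.04 and E2f2, an activator, of -0.61, none past the threshold. E2f2 had 10.9, 8.38, 6.72 and 11.2 TPM in DECP libraries, against 15.4, 17.6, 14.1 and 11.4 TPM in DECN libraries, and was the 1 gene of the 52 with every DECP library below every DECN library, as were 4.7% of all genes tested. The reverse order held for 21 of the 52, beside 6.81% of all genes tested.

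**Figure D2:**
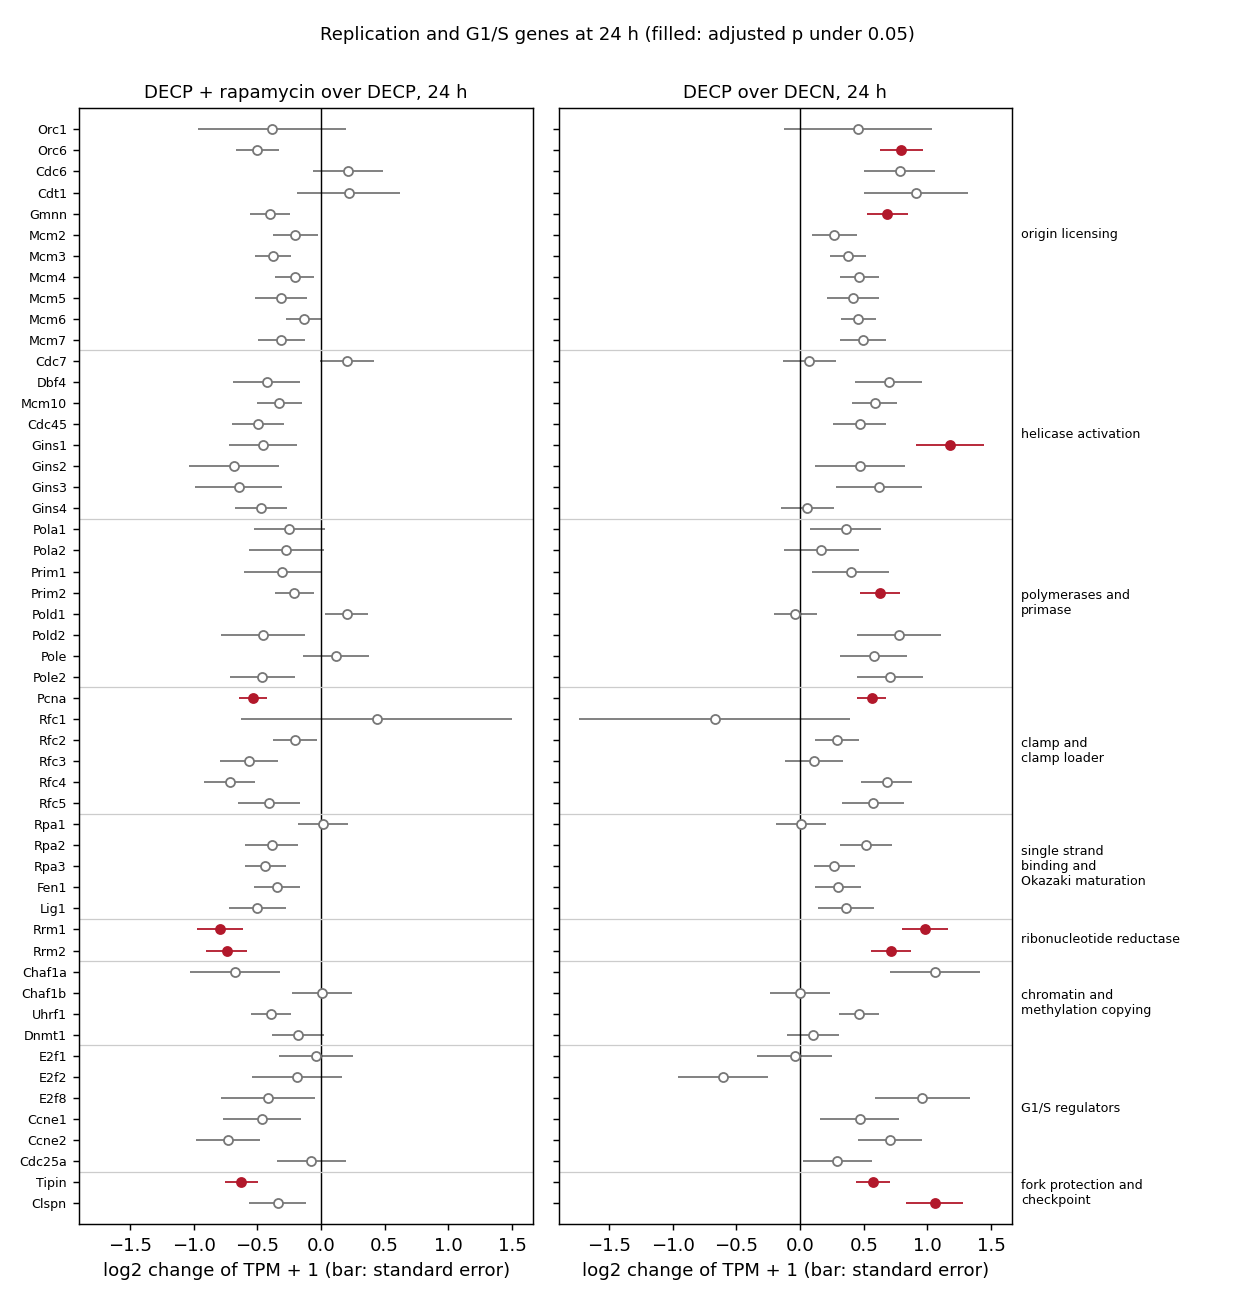
Log2 change of TPM + 1 of each of the 52 genes at 24 h, grouped by role, for DECP+rapamycin over DECP (left) and DECP over DECN (right); bars are standard errors and filled points have an adjusted p under 0.05. Most points lie below 0 on the left (44 of 52) and above 0 on the right (48 of 52), and both panels use the same DECP libraries.

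The count of 9 depended on the libraries and settings. It was 5 without DECP library 1, 3 without DECP 2, 4 without DECP 3 or DECP 4, and 4 without DECN 2 or DECN 4; it was 4 with no filter on low values or with quantile scaling, and 1, Rrm1, with no intensity trend. Rrm1 and Pcna rose in each of the 12 fits that left out 1 library. Within the libraries that carried the first of 2 second indexes (2 DECP against 2 DECN) the median log2 difference over the 52 genes was 0.43, with 41 positive, and within the other it was 0.47, with 48 positive. Among 10 marker genes of germinal centre B cells, 4 fell in DECP cells, with Cd79b, Ms4a1 and Cd79a among them (log2 changes of -0.73 to -0.78). Of the 10, 8 had a negative change and 2 a positive one. Gcsam averaged 97.3 TPM in DECP libraries, against 78.9 TPM in DECN libraries, and S1pr2 averaged 80.9 against 74.2 TPM. The summed level of the 10 was 2397 to 2997 TPM in DECP libraries, against 3679 to 4693 TPM in DECN libraries. Cd79b alone averaged 955 TPM in DECP libraries, against 1637 TPM in DECN libraries. Cxcr4, the dark zone receptor by which cells were gated as low, rose (1.02, adjusted p = 0.0414). The 2 light zone genes, Cd83 and Cd86, had negative changes that did not pass. Cd83 averaged 667 TPM in DECP libraries, against 931 TPM in DECN libraries, and Cd86 averaged 108 against 184 TPM. Cd3d, 1 of 6 T cell genes, rose (1.29), and the summed level of the 6 was 37.8 to 61.3 TPM in DECP and 18.2 to 21.8 TPM in DECN libraries, while the other 5 had group means of at most 1.43 TPM in DECP libraries at 24 h, against 2.22 TPM in DECN libraries (Cd4 in both). Apoe, 1 of 7 myeloid genes, fell (-1.07), and the sum of the 7 was 406 to 614 TPM in DECP and 1021 to 1123 TPM in DECN libraries, while the others, among them both identifiers named Itgam, had group means of at most 0.293 TPM in DECP libraries at 24 h (Itgam), against 1.51 TPM in DECN libraries (Adgre1). The part of these marker differences in the result was not tested.

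**Figure D3:**
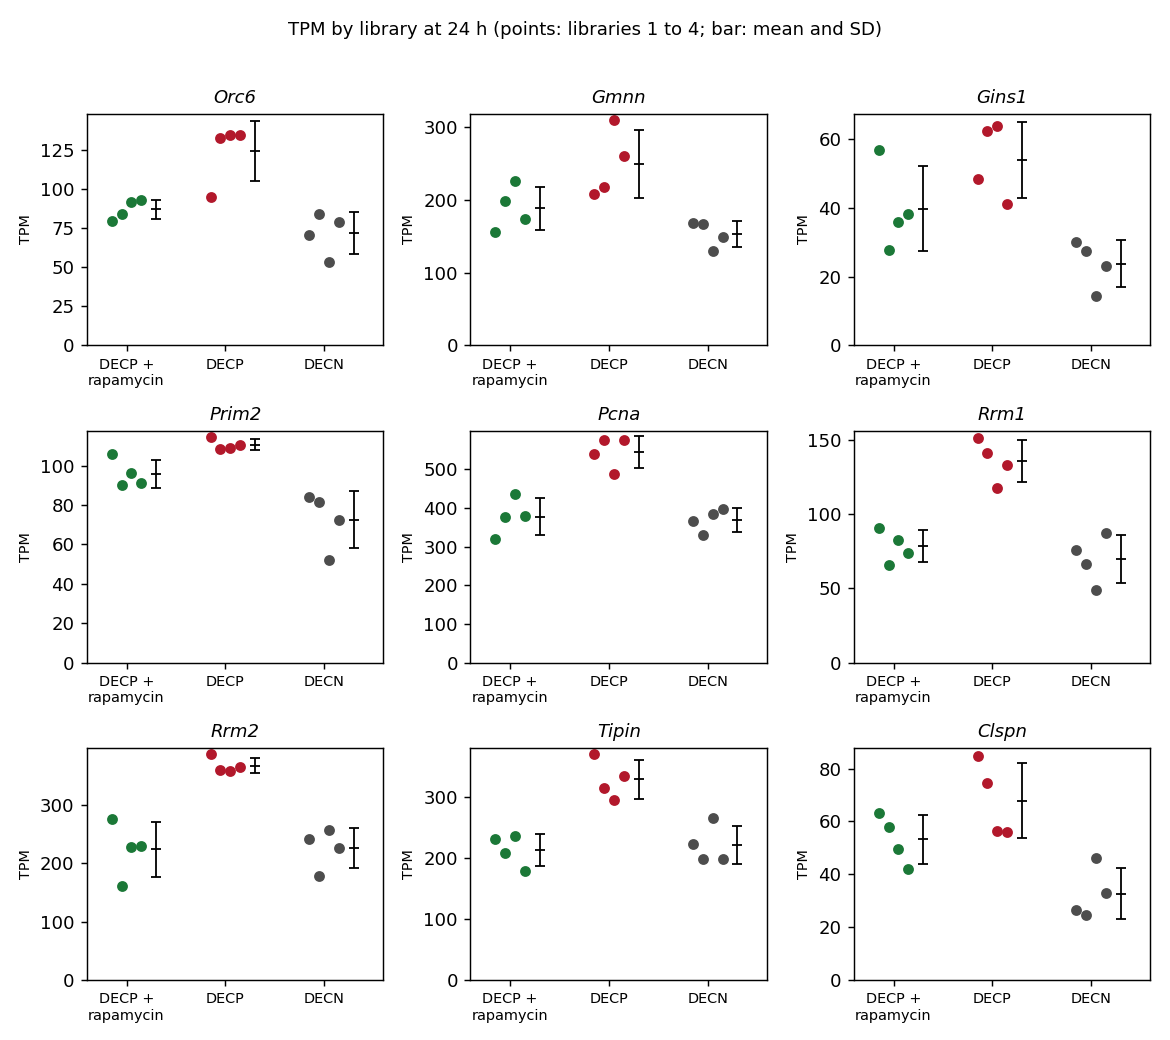
TPM of the 9 genes that rose in DECP over DECN cells at 24 h, in each library of the 3 groups at that time; points are libraries 1 to 4 and bars give the mean and SD. In each panel the 4 DECP libraries lie above the 4 DECN libraries, and the position of DECP+rapamycin varies, from near DECN for Rrm1 (78.3 TPM on average) to between the groups for Clspn (53.2 TPM).

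The promoters of some of these genes are shown because E2F factors, which recognise short sites near the start of replication genes, are the textbook regulators of the group. RefSeq promoters (GRCm38.p6, 250 bases before to 50 after the start) were matched for 42 of the 52 genes and for 5 of the 9 that rose. Matches to the 8-letter E2F sites TTTGGCGC, TTTCGCGC, TTTGCCGC and TTTCCCGC and to the CCAAT box were searched on both strands, and E2F matches may overlap each other. In the sequences below capitals mark both kinds of match, so runs of 5 capitals are CCAAT or its reverse ATTGG and longer runs are E2F matches.
Rrm1, chr7:102441445-102441744, forward strand: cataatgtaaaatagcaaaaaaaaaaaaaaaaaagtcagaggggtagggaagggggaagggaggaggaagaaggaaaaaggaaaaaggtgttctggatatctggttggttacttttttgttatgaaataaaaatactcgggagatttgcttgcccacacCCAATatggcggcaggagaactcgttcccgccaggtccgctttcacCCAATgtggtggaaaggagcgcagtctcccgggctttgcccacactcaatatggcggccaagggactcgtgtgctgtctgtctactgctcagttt
Rrm2, chr12:24708004-24708303, forward strand: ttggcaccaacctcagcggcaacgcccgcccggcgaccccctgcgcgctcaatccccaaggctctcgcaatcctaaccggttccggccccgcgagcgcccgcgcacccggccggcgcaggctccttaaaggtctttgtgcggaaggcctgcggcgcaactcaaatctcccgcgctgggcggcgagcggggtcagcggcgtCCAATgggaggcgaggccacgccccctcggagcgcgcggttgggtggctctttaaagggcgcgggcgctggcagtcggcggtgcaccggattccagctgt
Pcna, chr2:132253131-132253430, reverse strand: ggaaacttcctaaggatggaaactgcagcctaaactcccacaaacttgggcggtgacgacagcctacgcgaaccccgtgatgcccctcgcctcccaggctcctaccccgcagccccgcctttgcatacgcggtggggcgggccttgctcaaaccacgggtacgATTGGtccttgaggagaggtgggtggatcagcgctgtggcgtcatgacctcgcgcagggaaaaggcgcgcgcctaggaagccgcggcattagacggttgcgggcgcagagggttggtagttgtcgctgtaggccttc
Clspn, chr4:126556730-126557029, forward strand: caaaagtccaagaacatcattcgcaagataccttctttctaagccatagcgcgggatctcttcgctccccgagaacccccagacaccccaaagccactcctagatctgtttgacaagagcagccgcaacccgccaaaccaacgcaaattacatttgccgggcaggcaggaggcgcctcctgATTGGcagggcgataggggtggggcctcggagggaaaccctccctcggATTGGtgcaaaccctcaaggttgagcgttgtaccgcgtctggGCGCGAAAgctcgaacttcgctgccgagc
Mcm6, chr1:128359656-128359955, reverse strand: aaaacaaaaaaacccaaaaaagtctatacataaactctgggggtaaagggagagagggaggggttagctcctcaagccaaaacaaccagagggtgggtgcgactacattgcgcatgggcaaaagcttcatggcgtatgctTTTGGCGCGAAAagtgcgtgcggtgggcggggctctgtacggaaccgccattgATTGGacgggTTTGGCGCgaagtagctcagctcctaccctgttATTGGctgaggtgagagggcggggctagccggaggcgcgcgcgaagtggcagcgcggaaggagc
Clspn holds 1 E2F match, which begins 21 bases after the first transcribed base, and Mcm6, shown for comparison as the matched gene with most, holds 3, of which those that begin 110 and 106 bases before that base overlap in 1 run. None of the 4 E2F strings is in the windows of Rrm1, Rrm2 or Pcna, which each hold CCAAT. Over the 42 matched genes 18 (42.9%) had an E2F match, beside 704 of 27025 genes with a promoter in the table (2.6%). CCAAT was in the windows of 28 (66.7%), beside 41.1% of all. Of the 5 matched genes that rose at 24 h, Rrm1, Rrm2, Pcna, Orc6 and Clspn, 1 had an E2F match. For 35 G2/M and mitosis genes, 30 of them matched, the shares were 3.33% for E2F and 73.3% for CCAAT. A match is a string of letters, not a measured site.

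The next comparison asked how rapamycin, which blocks the growth kinase complex mTORC1, changed DECP cells at 24 h. Falls were found for 4 of the 52 genes (7.69%), Pcna, Tipin, Rrm2 and Rrm1, and a rise for none, whereas 1.53% of all 12783 genes tested fell, 0.657% rose and 2.18% did either. The change was negative for 44 of the 52, with a median of -0.38 beside 0.02 over all genes tested. An unadjusted p under 0.05 was reached by 15 of the 52, all lower with rapamycin, beside 8.32% of all genes that were lower by that rule. This comparison uses the same DECP libraries as the one above, so they are not independent.

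Rrm1 had 90.6, 65.8, 82.9 and 73.9 TPM in DECP+rapamycin libraries, against 117 to 151 TPM in DECP libraries. The groups did not overlap (log2 change -0.79, SE 0.18, adjusted p = 0.0406). Rrm2 had 277, 162, 228 and 230 TPM in DECP+rapamycin libraries, against 359 to 387 TPM in DECP libraries (-0.74, SE 0.16, adjusted p = 0.0296), with all 4 lower. The means were thus 78.3 ± 10.8 TPM for Rrm1 and 224 ± 47.3 TPM for Rrm2 in DECP+rapamycin (SD, n = 4), against 136 ± 14.2 and 369 ± 13.0 TPM in DECP cells (n = 4).

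Pcna had 320, 377, 435 and 380 TPM in DECP+rapamycin libraries, against 488 to 576 TPM in DECP libraries (-0.53, SE 0.11, adjusted p = 0.0264). Tipin had 231, 208, 237 and 178 TPM in DECP+rapamycin libraries, against 295 to 371 TPM in DECP libraries (-0.62, SE 0.13, adjusted p = 0.0287). Neither gene's groups overlapped. In all, 8 of the 52 genes had every DECP+rapamycin library below every DECP library, beside 5.33% of all genes tested.

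The other 5 genes that were higher in DECP than in DECN cells did not pass with rapamycin. Orc6 had 79.3, 83.8, 91.2 and 92.6 TPM in DECP+rapamycin libraries, each under the lowest DECP library at 94.9 TPM, with a log2 change of -0.50 and an adjusted p of 0.180. Gmnn had 156, 198, 225 and 174 TPM (-0.40, adjusted p = 0.258) and Gins1 had 56.9, 27.8, 35.9 and 38.1 TPM (-0.46). Both overlapped the DECP libraries. Clspn, with 63.1, 58.0, 49.7 and 41.9 TPM, had a change of -0.34. Prim2, with 106, 90.2, 96.3 and 91.2 TPM, had a change of -0.21, although each of its 4 libraries was below every DECP library. A miss of the threshold does not show that rapamycin left these genes unchanged.

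Of the genes given as examples for roles without a call, Rpa3 had 137, 131, 99.2 and 108 TPM in DECP+rapamycin libraries, all below the DECP libraries (-0.44, adjusted p = 0.215). Uhrf1 had 83.7, 58.3, 56.1 and 59.5 TPM (-0.39, adjusted p = 0.256), with 1 library inside the DECP range. Ccne2 had 36.6, 30.0, 36.5 and 26.6 TPM (-0.73, adjusted p = 0.183), where DECP library 1, at 32.3 TPM, lay among them. Of the 8 positive changes the highest were those of Rfc1 (0.44, SE 1.06), Cdt1 (0.22), Cdc6 (0.21) and Cdc7 (0.20).

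The count of 4 falls was 0 without DECP library 1, 2 or 4 or DECP+rapamycin library 2 or 4, and 1 without DECP 3 or DECP+rapamycin 1. It was 0 with quantile scaling or no intensity trend, and 1 with no filter or with only the 2 groups in the fit. The median change over the 52 genes, -0.38, was -0.23 with quantile scaling. Within the libraries of 1 second index the median change over the 52 genes was -0.43, with 10 positive, and within the other -0.22, with 12 positive (2 against 2 each). Among marker genes Cd79b (0.49), Cd79a (0.74), Cd83 (0.63) and Apoe (0.79) rose and Jchain (-0.77) fell with rapamycin. Jchain is 1 of 4 plasma cell genes. Of these Xbp1 averaged 82.1 TPM in DECP+rapamycin and 70.4 TPM in DECP cells, and Prdm1 and Sdc1 averaged at most 0.292 TPM in either. Of the 10 germinal centre B cell genes 8 had a positive change and 2 a negative one. All 3 naive and memory B cell genes had a positive change, and none passed. Their sum was 49.2 to 82.5 TPM in DECP+rapamycin and 21.1 to 62.2 TPM in DECP libraries, with overlap. The sum of the 10 germinal centre B cell genes was 3228 to 3890 TPM in DECP+rapamycin and 2397 to 2997 TPM in DECP libraries, and that of the 7 myeloid genes was 598 to 1188 TPM in DECP+rapamycin and 406 to 614 TPM in DECP libraries; the part of these differences in the result was not tested.

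DECP+rapamycin cells were also set against DECN cells, with the DECN libraries shared with the first comparison. limma called 0 of the 52 genes, where 1.31% of all genes tested passed, and 8 had an unadjusted p under 0.05 (7 higher and 1 lower), beside 6.89% of all genes that were higher and 6.42% that were lower by that rule. The median log2 change of the 52 was 0.09 and 34 were positive. For the reductase genes the changes were 0.19 (Rrm1) and -0.03 (Rrm2), for Pcna 0.03 and for Tipin -0.05. The smallest adjusted p among the 52 was that of Cdc6, the ATPase that loads the helicase, with 41.3, 24.1, 23.4 and 30.8 TPM in DECP+rapamycin libraries, 28.8, 30.0, 22.5 and 20.0 TPM in DECP libraries and 23.6, 13.9, 10.9 and 11.0 TPM in DECN libraries. All but 1 DECP+rapamycin library lay above every DECN library (log2 change 0.99 over DECN, SE 0.28, adjusted p = 0.113). Cdt1 (1.13), Clspn (0.72), Gins1 (0.72), Pole (0.70) and Prim2 (0.42) also had positive changes that missed the threshold. Pole and Prim2 were the 2 genes with every DECP+rapamycin library above every DECN library, beside 4.62% of all genes tested. Within 1 second index the median change was -0.05 and within the other 0.19.

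At 12 h DECP and DECN cells were compared in their own table. limma called 0 of the 52 genes, where 2.89% of all 13429 genes tested passed, and 9 had an unadjusted p under 0.05, 8 of them higher (10.8% of all genes) and 1 lower (9.09% of all). The change was positive for 33 of the 52 and the median was 0.16, beside -0.05 over all genes. Every DECP library lay above every DECN library for 8 genes, beside 12.6% of all genes, and below for 2, beside 13.7%. The largest changes were those of Orc1, Gins2 and Rpa3.

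Orc1 had 14.3, 24.2 and 11.9 TPM in DECP libraries, against 6.94, 5.34 and 5.12 TPM in DECN libraries at 12 h (log2 change 1.34, SE 0.33, adjusted p = 0.0798). Gins2 had 47.0, 51.0 and 77.8 TPM in DECP libraries, against 22.1, 19.4 and 30.4 TPM in DECN libraries (1.24, SE 0.29, adjusted p = 0.0646). Rpa3 had 73.0, 48.0 and 61.5 TPM in DECP libraries, against 36.1, 25.2 and 24.9 TPM in DECN libraries (1.06, SE 0.26, adjusted p = 0.0761). In all 3 the groups did not overlap, and none passed. Gins2 passed, as the only one of the 52, with the filter set at a TPM of 5 or with library weights; its adjusted p was 0.0439 to 0.134 over the settings.

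Of the licensing genes 9 of 11 were positive at 12 h (median 0.49), among them Mcm3, Mcm5 and Mcm6 at 0.49, 0.70 and 0.64 with unadjusted p-values of 0.0399, 0.0289 and 0.0327. E2f2 had 57.1, 63.5 and 96.8 TPM in DECP libraries, against 128, 111 and 155 TPM in DECN libraries, without overlap (-0.87, adjusted p = 0.115). Of the genes that rose at 24 h, Orc6 had 216, 183 and 270 TPM in DECP libraries, against 120, 148 and 161 TPM in DECN libraries (0.63, adjusted p = 0.155). Rrm1 had 81.1, 82.7 and 128 TPM in DECP libraries, against 55.6, 64.1 and 85.5 TPM in DECN libraries (0.49). Rrm1 overlapped between the groups, as 1 DECN library exceeded 2 DECP libraries. Clspn and Gmnn were negative at 12 h (-0.60 and -0.28), again with overlap.

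The change at 24 h was tested against that at 12 h in 1 fit of all 18 libraries. limma called 0 of the 52 genes, where 117 of 15085 genes (0.776%) passed, and 10 had an unadjusted p under 0.05 (9 with the higher change at 24 h, 1 with the lower), beside 4.74% of all genes that were higher and 5.49% that were lower. Gmnn had the smallest p, with a change 0.97 higher at 24 h than at 12 h (SE 0.27, adjusted p = 0.132). Clspn had 1.66 (SE 0.53, adjusted p = 0.211), Gins1 1.01 and Tipin 0.59, while Rpa3 had -0.79. The rise at 24 h is therefore not shown to differ from the change at 12 h for any single gene. By sign alone 31 genes were higher in DECP at both times, 17 were higher at 24 h and lower at 12 h, 2 the reverse, and 2, E2f2 and Rfc1, lower at both.

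**Figure D4:**
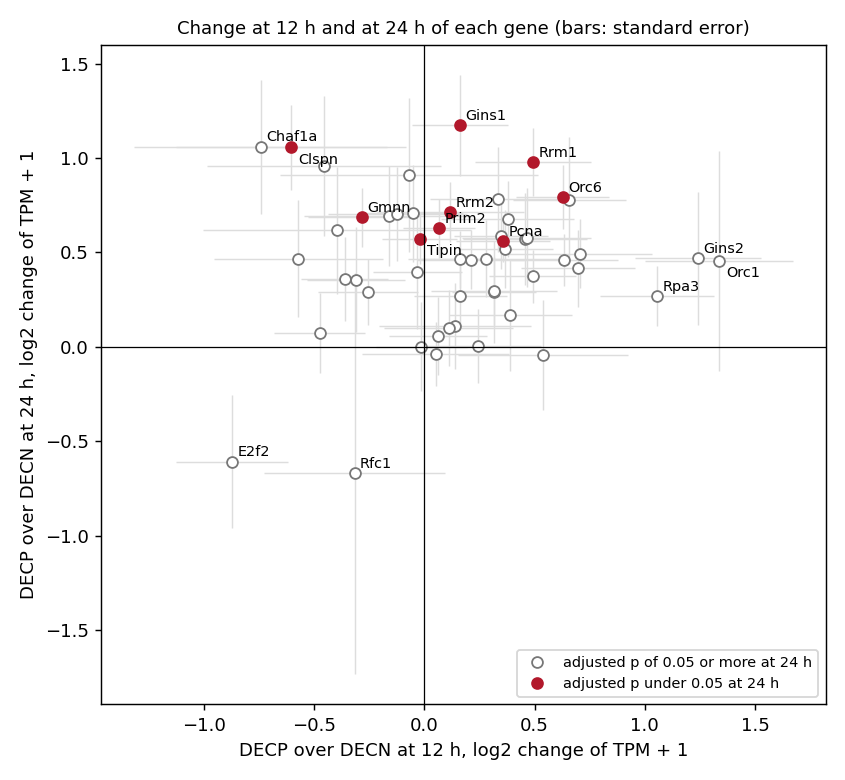
Log2 change of DECP over DECN at 24 h (vertical) against that at 12 h (horizontal) for each of the 52 genes, with standard errors; filled points have an adjusted p under 0.05 at 24 h. The 9 filled points lie between 0.56 and 1.17 at 24 h but on both sides of 0 at 12 h, and Orc1, Gins2 and Rpa3 lie furthest right.

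Levels also stood apart between the tables. In 17 of the 52 genes (32.7%) all 12 libraries at 24 h lay below all 6 at 12 h, beside 24.2% of 15085 genes, and in 4 (7.69%), Gmnn, Tipin, Pcna and Rpa3, all lay above, beside 6.03%. Cdc7 averaged 62.2 TPM in DECP+rapamycin, 53.8 in DECP and 50.5 TPM in DECN cells at 24 h, and 480 TPM in DECP cells and 675 TPM in DECN cells at 12 h. Cdc25a, the phosphatase that activates cyclin-dependent kinases, averaged 10.5, 10.8 and 8.71 TPM in the same 3 groups at 24 h, and 137 TPM in DECP cells and 110 TPM in DECN cells at 12 h. Mcm10, Lig1, Pola1, Ccne2 and Rfc1 were among the others that were lower in the 24 h table. Pcna, in the other direction, averaged 378, 545 and 369 TPM in the 3 groups at 24 h, and 191 TPM in DECP cells and 147 TPM in DECN cells at 12 h. The tables come from separate experiments by their labels, so time and experiment cannot be told apart, and no test was made.

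Other genes of the pathway were taken from a list of 63 replication and G1/S genes outside the 52. At 24 h 10 of the 63 (15.9%) rose in DECP over DECN cells and none fell (median 0.34), beside 2.72% of all genes tested that rose. The first 6 by p were Dut, which removes dUTP (501 ± 50.1 TPM in DECP cells and 280 ± 27.5 TPM in DECN cells, SD, n = 4 each, log2 change 0.84), the exonuclease gene Exo1 (1.47), Cdca7 (0.84), the origin recognition subunit gene Orc2 (1.17), the histone chaperone gene Nasp (0.66) and Cdk6 (0.99). With rapamycin Nasp (-0.72) and Dut (-0.62) fell and Timeless rose, while 43 of the 63 were negative (median -0.16). These calls were 4.76% of the 63, beside 2.18% of all genes tested that rose or fell. Timeless, the partner of Tipin, averaged 421 ± 60.1 TPM in DECP+rapamycin, 202 ± 19.2 TPM in DECP cells and 237 ± 40.8 TPM in DECN cells (n = 4 each). Its change was 1.05 over DECP (adjusted p = 0.00391) and 0.83 over DECN (adjusted p = 0.0184), the opposite sign to Tipin with rapamycin. Tyms and Cdca7 also rose in DECP+rapamycin over DECN (0.83 and 0.79). In that comparison 4.76% of the 63 passed, beside 1.31% of all genes tested. At 12 h 1 of the 63 (1.59%) rose, Cdk6 (0.85, adjusted p = 0.0350), and none fell, beside 2.89% of all genes tested that did either.

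For later steps of the cycle, 9 of 35 G2/M and mitosis genes (25.7%) rose in DECP over DECN cells at 24 h, with a median of 0.77. Among them were the cyclin B genes Ccnb1 (1.56) and Ccnb2 (1.09), Top2a (0.72), Ska1 (1.89), Birc5 (1.02) and Mad2l1 (0.77). With rapamycin 6 of the 35 (17.1%) fell against DECP, with a median of -0.72: Cks2 (-1.30), Ube2c (-1.49), Bub1 (-1.36), Ccnb2 (-1.06), Ccnb1 (-1.50) and Cenpa (-1.20). limma called 0 of the 35 for DECP+rapamycin over DECN, where 1.31% of all genes tested passed, and 0 at 12 h, where 2.89% passed. For DECP+rapamycin over DECN 3 of the 35 had an unadjusted p under 0.05 (2 higher and 1 lower). By that rule 6.89% of all genes were higher and 6.42% lower. At 12 h 4 of the 35 did (3 higher and 1 lower), beside 10.8% of all genes that were higher and 9.09% that were lower. The median change of the 35 was thus further from 0 than that of the 52 in both 24 h comparisons that use DECP; the difference between the lists was not tested.

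**Figure D5:**
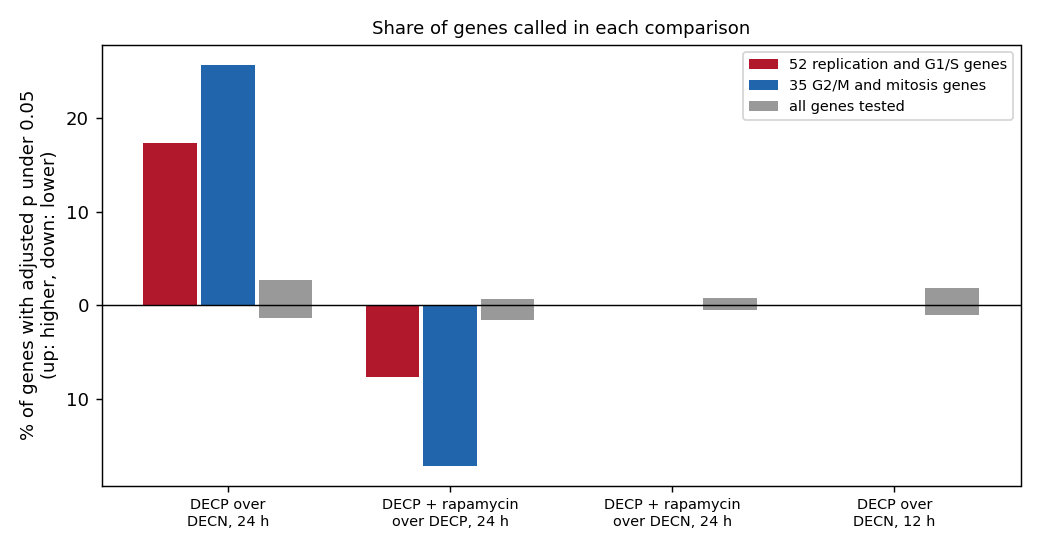
Share of genes with an adjusted p under 0.05 in each comparison, higher above the line and lower below it, for the 52 replication and G1/S genes, 35 G2/M and mitosis genes and all genes tested. In DECP over DECN at 24 h the shares of rises are 17.3%, 25.7% and 2.72%, and in DECP+rapamycin over DECP the shares of falls are 7.69%, 17.1% and 1.53%.

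The authors' deposited table of DECP and DECN at 24 h gave an adjusted p under 0.05 for 15 of the 52 genes, all higher in DECP, beside 5.2% of all genes with an adjusted p that were higher; these included all 9 above and also Mcm4, Ccne2, Mcm10, Uhrf1, Rfc4 and Pole2. In the authors' deposited table for rapamycin against DECP 7 were lower, beside 5.5% of all, the 4 above with Ccne2, Orc6 and Rfc4. For DECP+rapamycin against DECN the authors' deposited table gave 1, Cdc6, higher (1.84% of all), and at 12 h it gave 3, Orc1, Gins2 and Rpa3, higher in DECP, beside 7.21% of all.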

How the data were processed

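RNA was sequenced from 18 libraries made with Nextera XT, which does not mark strand, per the labels' protocols. The submitters' processing notes name kallisto 0.43.0 and GRCm38. This quantifier divides reads shared by near-identical copies by an estimate. The authors deposited 2 tables, 6 libraries at 12 h and 12 at 24 h, in a score that is the TPM plus 1, per the file headers, from which 1 was subtracted. In 4 further tables the authors deposited comparisons between groups: mean normalized counts of each group (a signal), log2 fold changes with standard errors, a test score, and a p-value before and after adjustment. Which program made them is not stated here, and they served for comparison only. The extraction protocol names 6 conditions in 3 replicates, whereas 5 groups are held.

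Tests were made in R 4.3.3 with limma 3.58.1 (intensity trend, empirical Bayes) on log2(TPM + 1), a scale that understates the change of low genes. Genes needed a TPM of at least 1 in 3 libraries at 12 h or 4 at 24 h. All tests were two-sided, p-values were adjusted by Benjamini and Hochberg's method over all genes tested, and "rose" and "fell" mean an adjusted p under 0.05. The 12 h fit used 6 libraries, the 24 h fit all 12, and the difference between times all 18. Replicates correlated at 0.920 to 0.956 over genes and no 2 libraries were identical. Of 30452 gene identifiers 30123 were found in GENCODE M21 (52 of the 52), whose coordinates are given 1-based. Plots used Python 3.11.15 with matplotlib 3.10.9. The pipeline was tested on simulated data.

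The 52 genes, the other lists and the alternatives were chosen with earlier results of these data known. Values per library are given for genes with a call and, in roles with none, for the gene with the highest mean TPM at 24 h; up to 6 called genes of another list are named by smallest p. Gins2, Orc1, Cdc6, E2f2 and other genes named outside that rule were chosen after their values were seen. Alternatives were a pseudocount of 0.1 or 5, no filter or a TPM of 5, quantile scaling, median centring, rescaling without immunoglobulin and mitochondrial genes, library weights, no intensity trend, a replicate block, a term for the second index, a fit of only the groups compared, and fits that leave out 1 library each. The values of 1 marker gene are not reported here.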

Additional observations from a re-analysis of the deposited data

Results flagged for a closer look

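Among 17 genes and summaries, each checked in 3 groups of 4 libraries (51 checks), 4 libraries stood apart from the others of their group, where chance gives about 1 in 20. Orc6 had 94.9 TPM in DECP library 1 at 24 h, against 133 to 135 TPM in the other 3, and was still above all DECN libraries. Gins2 had 33.1 TPM in DECP+rapamycin library 2, against 108 to 118 TPM in the other 3. That library also had the lowest summed level of the 52 genes in its group, 3613 TPM. Orc1 had 11.8 TPM in DECP library 4 at 24 h, against 3.93 to 4.96 TPM in the other 3. Uhrf1 had 83.7 TPM in DECP+rapamycin library 1, against 56.1 to 59.5 TPM in the other 3.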

How the results depend on the processing

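Under the alternative runs no median over the 52 genes and no single gene followed changed sign, but calls were lost or gained. At 12 h the count of called genes among the 52 was 0, and 1 with the filter at a TPM of 5 or with library weights; it was 0 in each fit without 1 library. For DECP over DECN at 24 h the count of 9 became 4 with no filter, with quantile scaling or with the replicate number as a block, and 1 with no intensity trend, and ranged from 3 to 9 without 1 library. For DECP+rapamycin over DECP the count of 4 became 1 with no filter, the replicate block or only the groups compared, and 0 with quantile scaling or no intensity trend, and ranged from 0 to 4 without 1 library. The cause of these moves was not tested; with no filter 23563 genes were tested in place of 12783. Over all genes the counts at 24 h were 517 for DECP over DECN, 329 with no filter and 182 with no intensity trend, and 279 for DECP+rapamycin over DECP, 164 with no filter, 130 with quantile scaling, 98 with the block, 140 with only the groups compared and 0 with no intensity trend. For DECP+rapamycin over DECN and for the difference between times the count was 0 throughout. The median over the 52 genes was 0.37 to 0.50 over the settings for DECP over DECN at 24 h, and -0.44 to -0.23 for DECP+rapamycin over DECP. The deviations of same-numbered libraries correlated at 0.053 at most in 3 pairs at 12 h and at 0.0894 at most in 12 pairs at 24 h. Between libraries of different numbers the highest correlations were 0.0300 at 12 h and 0.0631 at 24 h. Whether libraries of 1 number share animals is not stated, and these low correlations cannot decide it. Read depth is unknown, which leaves the precision of low genes such as Rfc1 and Orc1 unstated.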
